A study of Mus musculus with 12 samples.

Results

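The lens crystallins are the abundant soluble proteins of the eye lens, and the account that follows describes 10 of their genes in RNA from mouse retina. The genes were chosen by name (Cryaa, Cryba1, Cryba2, Cryba4, Crybb1, Crybb3, Crygb, Crygc, Crygd and Crygs) with measured values of these libraries known, so their levels are given as a description. They are 10 of the 19954 genes in the deposited table of both sexes, and all 10 passed the filter on low counts. The table held 6 other lens crystallins, Cryab, Crybb2, Cryga, Cryge, Crygf and Crygn, which serve for comparison.

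The libraries came from C57BL/6 embryos at embryonic day E15.5. Controls were labelled wild type. Mutants were Six3-Cre:Tbr2f/f, in which Cre, driven by Six3 sequences that are active in the early eye field, removes floxed Tbr2 (gene symbol Eomes), a T-box transcription factor of retinal ganglion cells. Each of the 4 groups (wildtype male, mutant male, wildtype female, mutant female) had 3 libraries, numbered 4, 5 and 6, and each library was a pool of 12 retinas collected over several litters. Because the labels name no separate animals behind each pool, p-values measure the spread between these pools only. Mice with Cre alone were not analysed here.

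Crystallins fall into an alpha family of small heat shock proteins, which keep other proteins from aggregating, and a beta and gamma superfamily of compact structural proteins that give the lens its refractive index. Alpha crystallin appears early in the lens vesicle, whereas the beta and gamma families accumulate as epithelial cells elongate into fibre cells, under transcription factors that include Pax6, Sox and Maf proteins, Prox1 and Pitx3. The retina is dissected away from the lens, and several crystallins are also known to be made at lower levels by retinal cells.

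Cryaa (ENSMUSG00000024041), the alpha crystallin found mainly in the lens, lies on chromosome 17, at 31677933 to 31681722 on the plus strand of mm10. An antisense gene, AC090881.2, overlaps it. The strand setting of the counting is not given in the sources used here, so reads of these 2 genes cannot be told apart. Cryba4 and Crybb1 are divergent neighbours on chromosome 5, with 3296 bases between them, and Crybb3 lies on the same chromosome. Crygb, Crygc and Crygd sit within 20417 bases of chromosome 1, where Cryba2 is also found. Cryba1 on chromosome 11 overlaps Nufip2 on the opposite strand, and Crygs is on chromosome 16.

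The sequences before the start sites of 6 members are shown as examples from the alpha, beta and gamma families. Whether these sequences bear on the levels was not tested. Each is the 150 bases before the RefSeq transcription start in GRCm38.p6, written on the gene's own strand. Capitals mark TGCTGA on either strand, the core of the site that Maf proteins recognise. They also mark TATAAA, the core of the promoter box bound by the general transcription machinery.
Cryaa, chr17:31677781-31677930, plus strand: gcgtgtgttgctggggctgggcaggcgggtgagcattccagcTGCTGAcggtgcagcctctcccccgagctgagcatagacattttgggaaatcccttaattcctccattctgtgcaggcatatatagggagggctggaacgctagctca
Cryba1, chr11:77725294-77725443, minus strand: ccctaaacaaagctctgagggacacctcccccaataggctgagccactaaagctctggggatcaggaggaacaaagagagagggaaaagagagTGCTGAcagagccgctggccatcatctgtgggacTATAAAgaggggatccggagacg
Cryba4, chr5:112252519-112252668, minus strand: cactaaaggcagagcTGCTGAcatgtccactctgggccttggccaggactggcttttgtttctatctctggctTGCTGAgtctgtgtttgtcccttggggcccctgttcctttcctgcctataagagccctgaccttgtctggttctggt
Crybb1, chr5:112255670-112255819, plus strand: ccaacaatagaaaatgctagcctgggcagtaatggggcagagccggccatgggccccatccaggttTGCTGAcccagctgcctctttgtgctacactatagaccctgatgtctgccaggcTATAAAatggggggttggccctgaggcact
Crybb3, chr5:113081585-113081734, minus strand: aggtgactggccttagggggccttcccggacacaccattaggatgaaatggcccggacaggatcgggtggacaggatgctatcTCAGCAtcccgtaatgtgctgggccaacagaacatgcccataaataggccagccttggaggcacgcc
Crygs, chr16:22811411-22811560, minus strand: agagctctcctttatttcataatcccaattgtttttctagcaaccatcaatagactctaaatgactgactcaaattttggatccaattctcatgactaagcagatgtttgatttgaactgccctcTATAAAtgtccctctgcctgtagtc
TGCTGA was searched on both strands and was found before 6 of the 10 members, namely Cryaa and all 5 beta genes, against 10.1% of 32851 windows of the same length in the RefSeq table. Cryba4 held it at 2 places, beginning 135 and 77 bases before its start. None of the 4 gamma members held these letters in this window. TATAAA was found before 3 of 10 members (Cryba1, Crybb1 and Crygs), against 7.57% of windows, and CTTTGT, a core that Sox proteins recognise, before Cryba1, Crybb1 and Crygb, against 9.88%. The motifs do not overlap one another in these windows. A match of letters is a description of sequence and not a measured binding site.

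The gamma genes are close copies, which bears on how their reads can be assigned. The first 90 coding bases of 4 of them, from GENCODE M21 transcripts, are shown with capitals where a base differs from Crygd.
Crygd: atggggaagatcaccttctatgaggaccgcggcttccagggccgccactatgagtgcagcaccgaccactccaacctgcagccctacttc
Cryge: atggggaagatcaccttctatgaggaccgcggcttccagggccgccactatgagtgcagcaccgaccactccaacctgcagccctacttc
Crygc: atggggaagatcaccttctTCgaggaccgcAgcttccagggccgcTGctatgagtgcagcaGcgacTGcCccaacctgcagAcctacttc
Crygb: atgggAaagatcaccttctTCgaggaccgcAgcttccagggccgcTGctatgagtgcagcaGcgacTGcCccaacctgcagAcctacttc
Over this stretch Cryge was identical to Crygd, Crygc differed from it at 10 bases and Crygb at 11. Over the whole coding sequence, Crygb and Crygc were 83.8% identical and Crygd and Cryge 91.6%. Of all 100-base windows of the Crygb transcript, 22.8% also occur in another lens crystallin transcript, with 17.8% for Crygc and 15.8% for Crygd. Their single values are therefore uncertain and their sum is also given. That sum holds both partners of the windows shared by Crygb and Crygc. It does not hold Cryge, with which Crygd shares its windows. For Cryaa, the 5 beta members and Crygs no window of that length was shared.

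Library totals were 18514607 to 27072825 counts, with 16903 to 19242 genes detected. Eomes stood at 53.4 to 76.1 CPM (a gene's counts per 1000000 counts of the library) in wildtype and at 9.62 to 27.4 in mutant libraries, so every library followed its genotype label. Retinal genes, summed over 13 retina markers, were at 3223 to 3833 CPM. The mitochondrial transcript mt-Nd6 split the libraries apart from their groups: it was 373 to 484 CPM in wildtype male 5, mutant male 4, wildtype females 4 and 6 and mutant female 4, and 9.70 to 48.4 CPM in the other 7. Mutant male 6 had the fewest counts and genes, and mutant female 5 the highest level of every member.

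Cryaa had the highest median level per transcript length of the 10 members and ranged 988-fold across the retina pools. The wildtype male pools 4, 5 and 6 measured 25.1, 355 and 2.27 CPM. The mutant male pools, in the same order of numbers, measured 252, 429 and 0.918 CPM, the last from 17 counts. The wildtype female pools measured 116, 82.6 and 1.70 CPM, and the mutant female pools 3.46, 907 and 1.50 CPM. Each group of 3 pools of the same sex and genotype held a pool under 4 CPM and a pool over 100 CPM, and the genotypes overlapped. Cryaa was under 5 CPM in 5 libraries and over 20 CPM in the other 7.

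**Figure D1:**
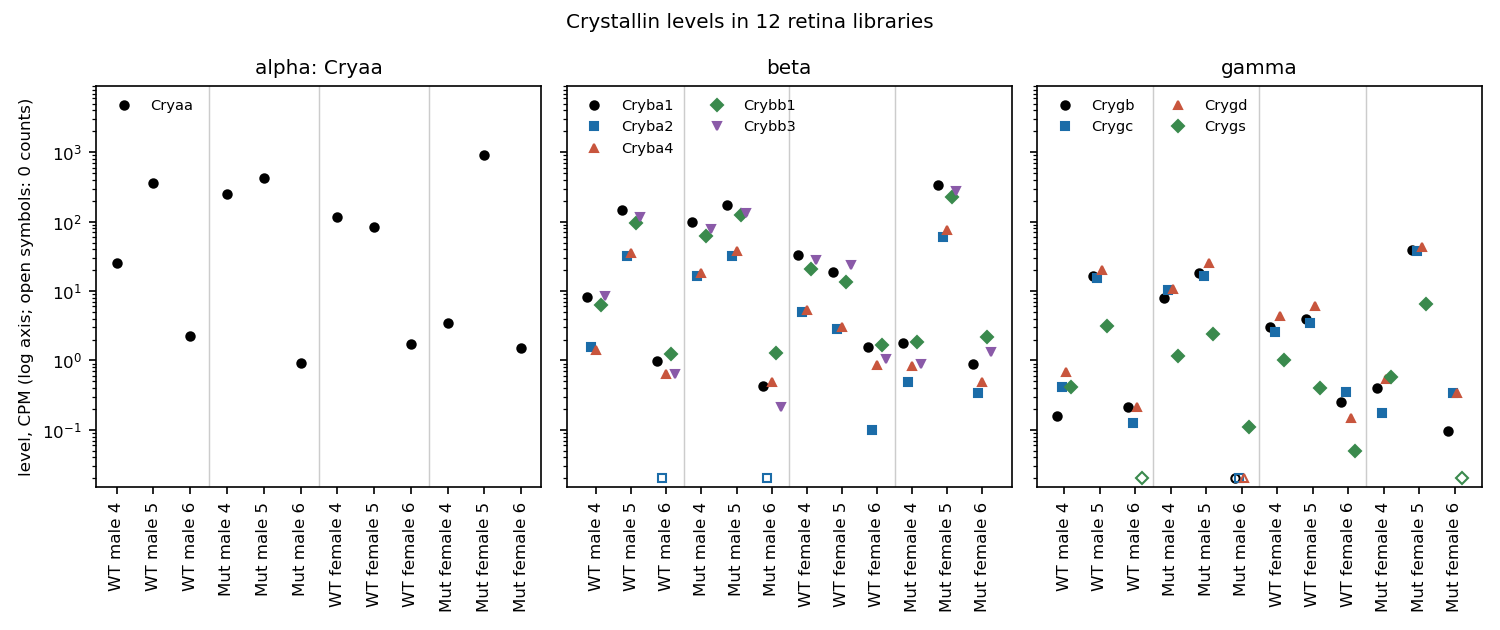
Level of each member in each of the 12 libraries, in CPM on a log axis, with alpha, beta and gamma genes in separate panels, WT for wildtype and Mut for mutant, and open symbols at the base for 0 counts. The 4 libraries numbered 6 stand low in every panel, with Cryaa at 0.918 to 2.27 CPM, and mutant female 5 stands highest, with Cryaa at 907 CPM.

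The libraries numbered 6 were low in every group. For all 10 members the 4 libraries numbered 6 were among the 5 lowest. Cryaa was 0.918 to 2.27 CPM in the libraries numbered 6, 3.46 to 252 in those numbered 4 and 82.6 to 907 in those numbered 5. What the numbers stand for is not given in the sources used here, and their part in the levels was not tested.

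The 5 beta members, which form the oligomeric beta crystallins of the fibre cells, were high in the same pools as Cryaa. Cryba1, an acidic beta crystallin that is also known in astrocytes, measured 8.21, 147 and 0.965 CPM in the wildtype male pools 4, 5 and 6. The mutant male pools measured 99.7, 173 and 0.432 CPM, the wildtype female pools 33.3, 19.1 and 1.55 CPM and the mutant female pools 1.77, 334 and 0.874 CPM. The pools that were high in Cryaa were again the high ones, and the spread was 772-fold.

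Crybb1, a basic beta crystallin that is switched on with fibre differentiation, measured 6.29, 95.8 and 1.22 CPM in the wildtype male pools. The mutant male pools measured 62.3, 124 and 1.30 CPM, the wildtype female pools 20.9, 13.6 and 1.65 CPM and the mutant female pools 1.86, 225 and 2.18 CPM. It was high in the pools that were high in Cryaa, and its spread was 185-fold. Crybb3, also a basic beta crystallin, spread 1297-fold, with 0.216 CPM, or 4 counts, in mutant male 6 and 280 CPM at its highest in mutant female 5. The acidic Cryba4 spread 154-fold, from 0.485 to 75.0 CPM. Cryba2, the remaining acidic member, had 0 counts in wildtype male 6 and mutant male 6. Its 61.0 CPM in mutant female 5 was at least 377-fold higher than the floor of 3 counts in mutant male 6, the shallower of the 2.

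The gamma members are monomeric proteins of the dense lens core. Crygd, the highest of them per length, measured 0.676, 19.8 and 0.210 CPM in the wildtype male pools. The mutant male pools measured 10.7, 25.2 and 0 CPM, the wildtype female pools 4.32, 6.00 and 0.150 CPM and the mutant female pools 0.532, 43.2 and 0.340 CPM. Its high pools were those high in Cryaa, with wildtype male 4 among its low ones. Against the same floor, mutant female 5 was at least 267-fold higher for Crygd, at least 238-fold for Crygb and at least 231-fold for Crygc, all 3 at 0 counts in mutant male 6. Crygs, a gamma crystallin encoded outside the chromosome 1 cluster, had the lowest median, with 0 counts in wildtype male 6 and mutant female 6 and 6.45 CPM in mutant female 5.

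Compared per transcript length, as FPKM in the authors' table (scaled by transcript length and library size), the median over the 12 libraries was 45.4 for Cryaa. The medians were 11.3 for Crybb1, 11.2 for Crybb3, 9.92 for Cryba1, 2.72 for Cryba4 and 2.36 for Cryba2 among the beta genes. Among the gamma genes they were 3.97 for Crygd, 2.70 for Crygb, 1.89 for Crygc and 0.701 for Crygs. In the richest pool, mutant female 5, the order was Cryaa at 765, Crybb1 at 255, Cryba1 at 242, Crybb3 at 197, Cryba4 at 92.8, Crygd at 68.6, Cryba2 at 66.1, Crygb at 60.7, Crygc at 47.9 and Crygs at 9.11 FPKM. Neighbours in this order differed by less than the spread of any member between pools, and in 3 of the 4 libraries numbered 6 Crybb1 stood above Cryaa: at 1.47 against 0.774 FPKM in mutant male 6, 2.48 against 1.27 in mutant female 6 and 1.87 against 1.43 in wildtype female 6.

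Summed, the 10 members held 64 of the counts of mutant male 6, or 0.000346% of that library, and 46991 counts or 0.201% of mutant female 5. In bulk RNA, fewer cells of a type and less RNA per cell cannot be told apart, so these shares do not count cells. The shares that follow are of counts and are not corrected for length. In the 7 libraries with Cryaa over 20 CPM, Cryaa gave 42.4% (wildtype male 5) to 52.9% (wildtype female 4) of the members' counts. The beta members gave 39.2% (wildtype female 5) to 51.1% (wildtype male 5) and Crygb, Crygc and Crygd 2.37% (wildtype male 4) to 8.43% (wildtype female 5). In the 5 low libraries Cryaa gave less, 20.1% to 36.2%, and the beta members 53.2% to 70.3%.

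The ratio of the summed beta counts to those of Cryaa differed in the same way. The 5 beta members together had 75.1% (95% interval 69.7 to 80.9) as many counts as Cryaa in wildtype female 5 and 79.5% (75.4 to 83.9) in wildtype female 4. In the other 5 high libraries the value was 103% to 120%. In the 5 low libraries it was 152% to 345%, with 345% (230 to 533) in mutant female 6, where Cryaa had 31 counts. Intervals are exact Clopper-Pearson and cover counting error only, since reads without molecular identifiers are not independent molecules.

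Crybb1 showed that shift. It had 16.5% to 28.8% as many counts as Cryaa in the 7 high libraries and 53.7% (wildtype male 6, interval 33.0 to 85.8) to 145% (mutant female 6, 89.9 to 237) in the 5 low ones. The highest bound among the high libraries was 30.6% (wildtype male 4), below every interval of the low ones. Cryaa both set this split and is the denominator of every ratio to it. Libraries picked for little Cryaa lean towards higher ratios, so the separation is a description only. Cryba4 also took larger shares of Cryaa there, 24.4% to 52.9%, against 3.63% to 10.1% in the high libraries. The ratio of Crybb3 to Cryaa did not separate the libraries this way, also from few counts. It was 23.5% in mutant male 6 (4 counts, interval 5.76 to 72.1), 25.6% in mutant female 4 (20 counts) and 27.8% in wildtype male 6 (15 counts). In the high libraries it was 24.1% to 33.3%. It was 61.8% in wildtype female 6 and 87.1% in mutant female 6, from 21 and 27 counts. Cryba2 had 0 to 11 counts in the 5 low libraries, too few to place its ratio.

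**Figure D2:**
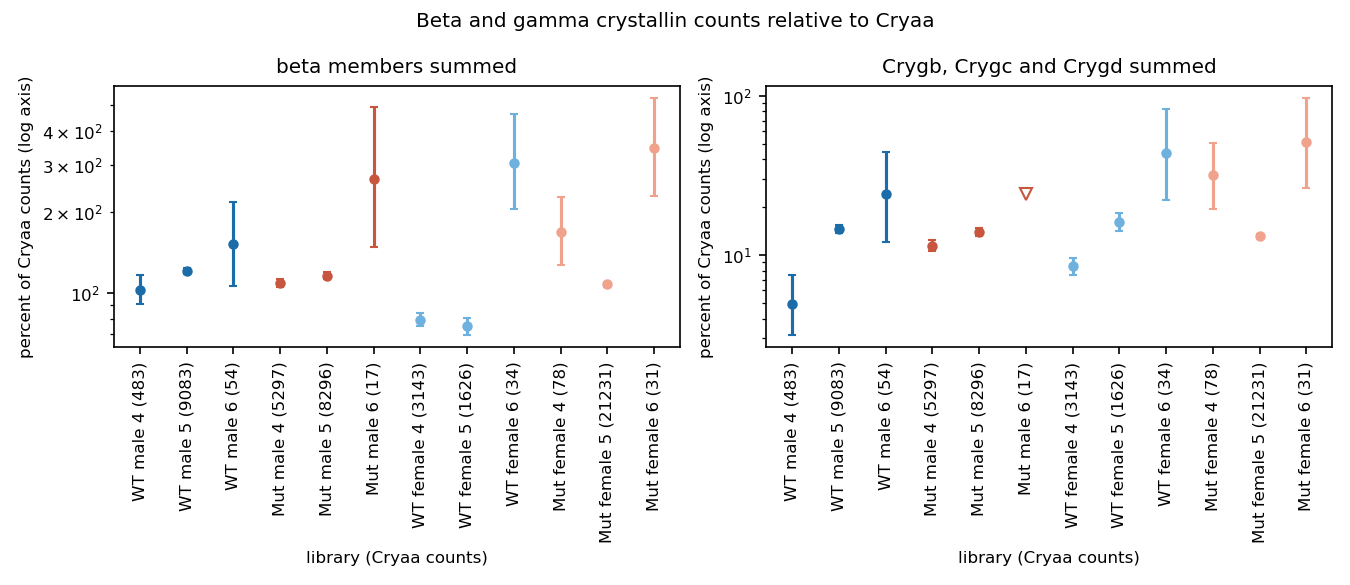
Counts of the 5 beta members (left) and of Crygb, Crygc and Crygd (right) as a percent of Cryaa counts in each library, on log axes, with 95% exact intervals for counting error and the Cryaa count in brackets. The open triangle is the upper limit for 0 counts in mutant male 6. The beta ratio is lowest in wildtype female 5 at 75.1% and wildtype female 4 at 79.5%, and it is highest in mutant female 6 at 345%.

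Where both genes had at least 100 counts, which leaves out every library low in Cryaa, ratios to Cryaa varied less than the levels. In the 7 libraries high in Cryaa, it ran from 25.1 to 907 CPM. In the 4 libraries used for Crygc, Crygc ran from 10.4 to 37.5 CPM. The fold between the highest and lowest ratio was 1.79 for Cryba1, 1.75 for Crybb1 and 1.39 for Crybb3 over 7 libraries. It was 2.10 for Cryba2 and 2.21 for Cryba4 over 5 libraries, 1.95 for Crygd over 6 and 1.45 for Crygb and 1.15 for Crygc over 4. With the minimum at 20 counts, which brings in low libraries, Crybb1 reached 8.81-fold and Cryba1 3.94-fold. Crygb, Crygc and Crygd together were 4.97% (3.15 to 7.48) of Cryaa in wildtype male 4, 8.53% (7.50 to 9.66) in wildtype female 4 and 16.2% (14.1 to 18.4) in wildtype female 5.

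The 6 other lens crystallins were also highest in mutant female 5. Cryab, the alpha crystallin that is also expressed in many other tissues, spread 30.5-fold, from 1.24 to 37.9 CPM. It had 2.15% (mutant male 5) to 11.8% (wildtype male 4) as many counts as Cryaa in the high libraries and 50.0% to 145% in the low ones. Cryge, a gamma crystallin, kept 17 counts in mutant male 6, where Crygb, Crygc, Crygd and Crygf had none. Crygf stood at 5.66% (4.54 to 6.98) of Cryaa in wildtype female 5 and at 1.38% to 2.46% in the other high libraries. Crybb2, which builds up mainly after birth, had 0 counts in 6 libraries and at most 10, in mutant female 5.

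Genes of the lens outside the crystallin family were tested against Cryaa, and most did not pass. Of 30 listed lens genes, 28 were in the table and 25 passed the filter. Because Cryaa split the libraries into 5 low and 7 high ones, the relation was computed within the 7 high libraries as well as over all 12. That split was made after the values were seen. On log2(CPM + 0.5), 5 of 12 fibre genes and 2 of 13 lens transcription factors passed within the 7 (exact permutation tests, two-sided, Benjamini-Hochberg over the 25 relations). Over all 12 libraries 5 and 4 passed (100000 permutations, adjusted likewise). All that passed were positive. The share of all genes that would pass the same tests is not given, so whether these counts exceed it is not known. The median r of each list over 12 libraries was 0.26 and 0.37, against -0.0016 over the 13691 genes outside the members with at least 1 CPM.

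The fibre genes that followed Cryaa included genes of junction and membrane proteins of lens fibre cells. Gja3, the connexin 46 gap junction protein, had 0 counts in 4 libraries, all among the 5 low in Cryaa, and 11.8 CPM in mutant female 5. Its r with Cryaa was 0.96 within the 7 high libraries (exact permutation p = 0.00317, adjusted 0.0159). Over all 12 it was 0.93, with a Spearman rho of 0.87 (permutation p = 1e-05, the smallest the permutations can give, and 0.00055), and 0.95 without the 2 libraries farthest from the median of Cryaa.

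Mip, the water channel aquaporin 0 of fibre membranes, had 0 counts in mutant male 6 and wildtype female 6 and 48.8 CPM in mutant female 5. Its r was 0.94 within the 7 (exact permutation p = 0.00159, adjusted 0.0132) and 0.96 over 12, with a rho of 0.97 and 0.95 without the 2 farthest. Grifin (a lens galectin) and Bfsp1 (filensin, of the beaded filament) had r of 0.94 and 0.91 within the 7 libraries. By contrast Gja1, connexin 43, which is also a retinal gene, had an r of 0.01 there and ranged from 66.9 to 104 CPM.

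Foxe3, the forkhead factor of the lens epithelium, had 0 counts in 6 libraries, namely the 5 low ones and wildtype male 4. It was 2.72 to 6.99 CPM in 5 others and 21.7 CPM in mutant female 5. Its r with Cryaa was 0.89 within the 7 libraries (exact permutation p = 0.00873, adjusted 0.0312) and 0.94 over 12, with a rho of 0.91 and 0.93 without the 2 farthest. Pitx3, a homeobox factor of lens development, had an r of 0.96 within the 7 and 0.72 over 12. Sox1 and Tdrd7 passed over 12 libraries (r = 0.66 and 0.67) but not within the 7 (0.65 and 0.53, exact permutation adjusted p = 0.276 and 0.431). The other 16 lens genes did not pass over 12 libraries, among them Birc7 (r = 0.24), Slc16a12 (0.29) and Hspb1 (-0.17), and Pax6 and Six3, which retinal progenitors also express (0.24 and -0.28).

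**Figure D3:**
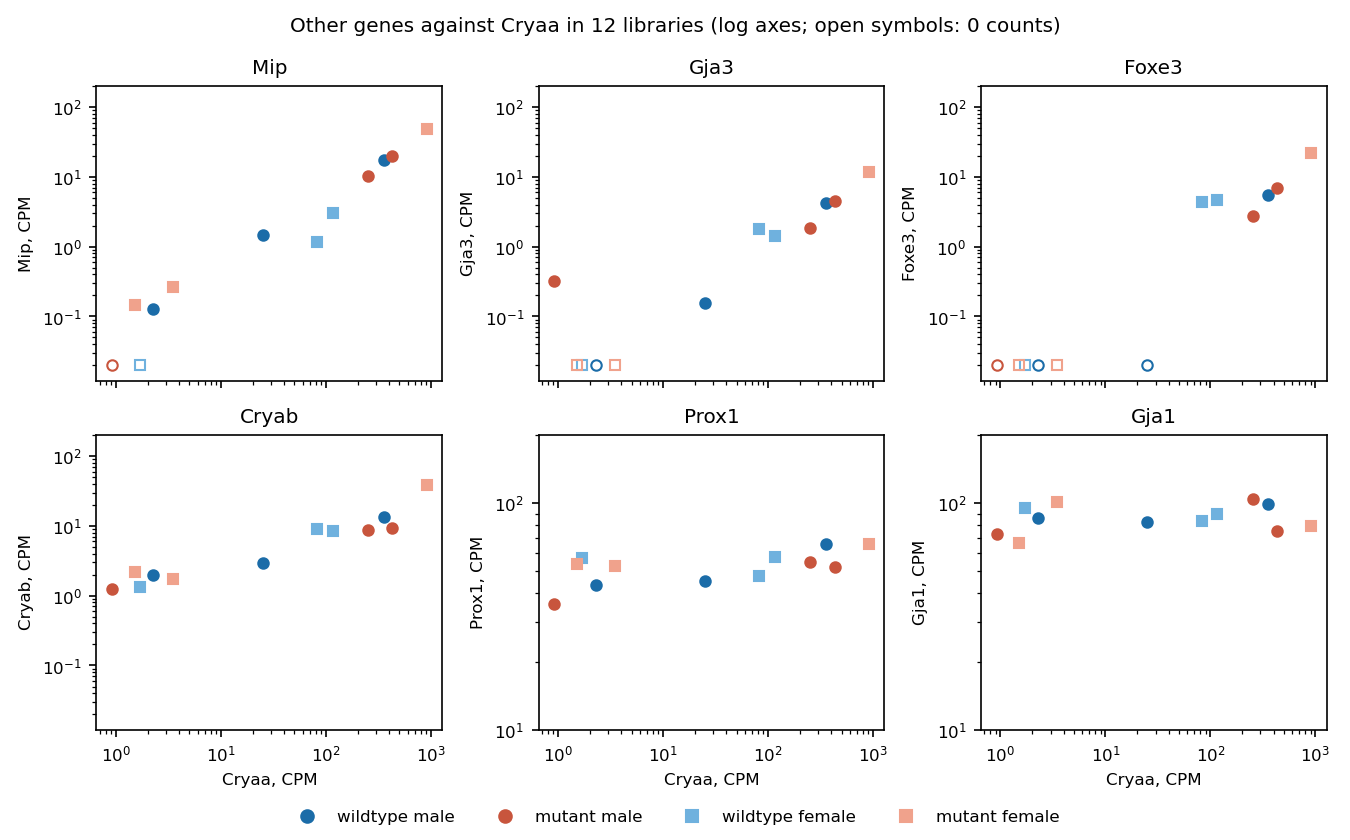
Level of 6 genes against that of Cryaa in the 12 libraries, in CPM on log axes, with circles for males, squares for females, blue for wildtype and red for mutant, and open symbols at the base for 0 counts. Mip, Gja3, Foxe3 and Cryab are highest where Cryaa is highest, at 48.8, 11.8, 21.7 and 37.9 CPM in mutant female 5, whereas Gja1 stays between 66.9 and 104 CPM.

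Foxe3 marks lens epithelium and Mip lens fibres, so their balance was set beside the beta ratios, a comparison chosen after the values were seen. Foxe3 made up 79.1% (95% exact interval 70.3 to 86.3) of the summed Foxe3 and Mip counts in wildtype female 5 and 60.8% (53.8 to 67.4) in wildtype female 4. In mutant female 5 it was 30.7% (28.5 to 33.0), in mutant male 5 25.9%, in wildtype male 5 23.9% and in mutant male 4 21.0%. In wildtype male 4 it was 0 of 28 counts, which allows up to 12.3%. The 2 wildtype female pools with the higher Foxe3 share were also the 2 with the lowest beta ratios. Wildtype male 4, with the lowest Foxe3 share, had the next lowest beta ratio, 103%, against 107% in mutant female 5. Other fibre genes did not all follow Mip. Where both genes had at least 20 counts, Mip was lowest relative to Cryaa in wildtype female 5, at 1.41%. Gja3 was highest there, at 2.15%. Crygb, Crygc and Crygd together were 16.2% of Cryaa in wildtype female 5, the highest of the high libraries. Of these, wildtype male 4 was lowest, at 4.97%. What the Foxe3 share says about epithelium and fibres was not tested.

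By a fixed measure of likeness, the Pearson r of log2(CPM + 0.5) over the 12 libraries, 10 of the 13691 other genes exceeded 0.9 with Cryaa, a share of 0.0730%. They included Cryge (0.97), Crygn (0.96), Crygf (0.96), Mip (0.96), Cryab (0.95), Foxe3 (0.94), Capn3 (0.93), Gja3 (0.93) and Nid1 (0.90). Of the 10, 8 were on the lens lists. Capn3, the protease calpain 3, ran from 2.60 to 80.8 CPM and Nid1, the basement membrane protein nidogen 1, from 13.7 to 51.3 CPM. Among the members themselves 8 of 9 exceeded 0.9, from 0.90 for Crygs to 0.99 for Crybb3. Since the members were picked knowing these values, that count is not read against the share.

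Summed markers of the retina and of 6 other tissues or cell types that a retina pool could hold were tested against Cryaa over the 12 libraries, and 0 of 7 lists passed. Their r ran from -0.29 for blood to 0.49 for vessels and mesenchyme, whose unadjusted permutation p of 0.104 was the smallest (Spearman 0.162, adjusted 0.725 and 0.671). Without the 2 libraries farthest from the median of Cryaa, r was 0.67 for the retina list (0.10 over all 12), 0.54 for surface ectoderm and cornea (0.23) and 0.38 for microglia (-0.20). Within the 7 libraries high in Cryaa r ran from 0.11 for pigment epithelium to 0.53 for the retina list, and 0 of 7 passed (smallest exact permutation p = 0.204, adjusted 0.734). Summed levels were 31.3 to 47.4 CPM for 13 pigment epithelium genes, 294 to 656 CPM for 10 blood genes, 11.7 to 17.9 CPM for 9 surface ectoderm and cornea genes and 255 to 294 CPM for vessels and mesenchyme. Microglial genes were at 50.5 to 73.7 CPM and genes of the ciliary margin and optic stalk at 398 to 544 CPM. Of the 25 lens genes outside the crystallin family, 9 passed over the same 12 libraries. Those genes were tested singly and the tissue lists only as sums, which their most abundant genes govern. The counts that passed are therefore not read against each other. Where the crystallin RNA in the retina pools came from was not tested.

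Between the genotypes, no member passed. In the test of all 12 libraries (edgeR quasi-likelihood test, sex as a term, Benjamini-Hochberg over 15467 genes, threshold 0.05), 4 genes were called, or 0.0259%, and 0 of the 10 members. Cryaa ran from 1.70 to 355 CPM in wildtype and from 0.918 to 907 CPM in mutant libraries. In wildtype libraries the mean of Cryaa was 97.1 ± 134 CPM (SD, n = 6) and in mutant libraries 266 ± 360 CPM (SD, n = 6), so each SD was larger than its mean. All 10 members had overlapping ranges. The fitted log2 difference of mutant minus wildtype was 1.48 for Cryaa (SE 1.48), 1.70 for Crybb1 (SE 1.27) and 1.05 for Crygs (SE 1.07), each with an edgeR adjusted p of 0.918. The smallest unadjusted edgeR p was 0.203, for Crybb1, and DESeq2 also called 0 of the 10.

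The fitted differences of all 10 members were above 0, with a median of 1.56 against -0.01 over all genes tested, of which 47.3% were above 0. Mutant female 5 set that sign. Without mutant female 5 all 10 were below 0, with a median of -0.39, and without wildtype male 5 the median was 3.21. For the 5 pools high in mt-Nd6 the members' median was -1.29, and for the 7 low pools 3.49. The 7 low pools held mutant female 5, and the 5 high ones held wildtype male 5. This split therefore cannot be told apart from the weight of those single libraries. In the authors' deposited table the log2 fold changes of the members were 0.02 to 0.03, with a deposited adjusted p of 0.951 for each. DESeq2 run here on the same counts, with no shrinking of fold changes towards 0, gave 1.49 for Cryaa. The deposited sizes are therefore not read against the fitted ones.

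**Figure D4:**
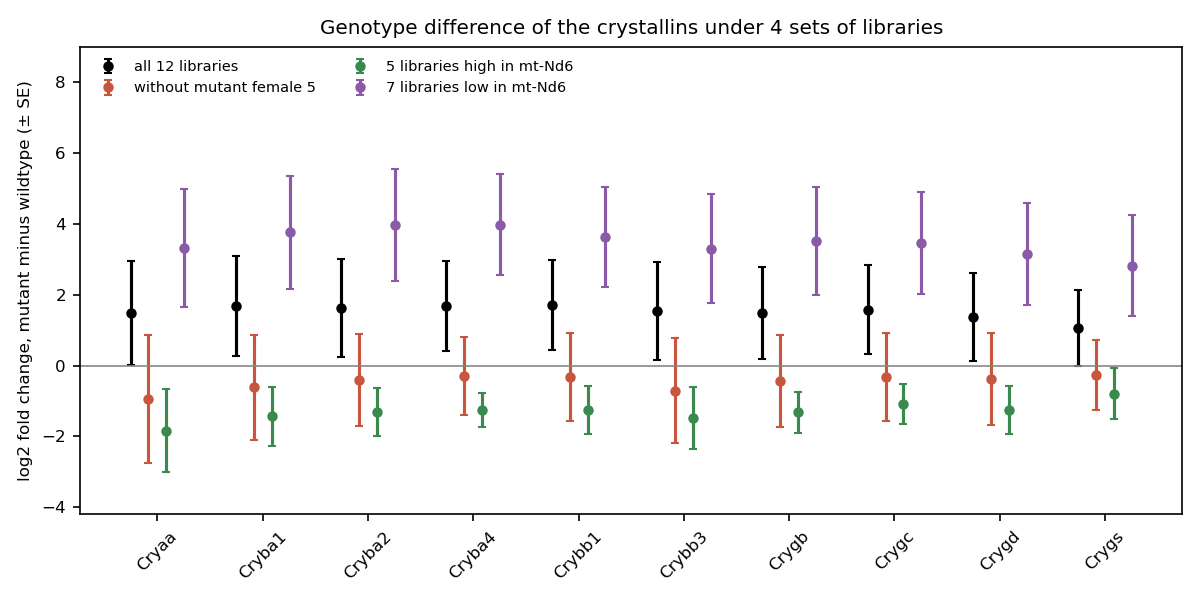
Fitted log2 fold change of each member, mutant minus wildtype, with bars for the SE, in 4 sets of libraries: all 12, 11 without mutant female 5, the 5 high in mt-Nd6 and the 7 low in mt-Nd6. All 10 lie above 0 with all libraries (median 1.56) and below 0 without mutant female 5 (median -0.39).

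In males alone, 0 of 14945 genes passed (0%), 0 members among them, with 210 genes at an unadjusted edgeR p under 0.05 and 6 called by DESeq2. The members' median was 0.70, with 9 of 10 above 0. Leaving out mutant male 5 gave -0.25, and leaving out wildtype male 5 gave 4.29. In females alone, 1 of 14956 genes passed (0.00669%), which was Eomes, and 0 members. The members' median was 2.502, it was -3.00 without mutant female 5, and with the replicate number as a block it was 0.85 and 2 genes passed.

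The difference of the genotype effect between the sexes was tested as an interaction. With edgeR, 0 of 15467 genes passed (0%), with 267 at an unadjusted p under 0.05 and 0 called by DESeq2. For Cryaa the interaction on the log2 scale, female minus male, was 1.38 (SE 2.96), smaller than its SE. The members' median was 1.84, and it was -3.71 without mutant female 5 and -1.65 without wildtype male 5. At SEs of this size a genotype difference of the fitted size was not detectable in these pools.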

How the data were processed

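Bulk RNA was sequenced from 12 pools of mouse retina, 3 in each of 4 groups. Reads were mapped to mm10 with STAR 2.5 and counted per gene with HTSeq 0.6.1, per the submitters' processing notes (annotation release and strand setting: not given in the sources used here). The deposited table of both sexes holds raw counts per gene for each library and the authors' FPKM values. It also holds the authors' log2 fold changes with p-values, deposited as DESeq2 results per the submitters' processing notes. The deposited tables of each sex were not used. The members and lists were chosen with earlier results of these data known.

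CPM values were computed from counts and library totals without further scaling. Genotype effects were fitted on counts with edgeR 4.0.16 (TMM scaling, filterByExpr, quasi-likelihood test, R 4.3.3) and adjusted over all genes tested, after the script was tested on simulated data. Sex was a term in the fit of all 12 libraries. Correlations used log2(CPM + 0.5) with permutation tests (scipy 1.17.1). Ratios to Cryaa were summarised where both genes had at least 20 counts, and a floor of 3 counts in a library served for zeros. Promoters came from the RefSeq table of GRCm38.p6, and gene positions and transcripts from GENCODE M21, on the same build. Genes named were the members, the 6 other lens crystallins, Eomes, mt-Nd6, lens genes past the threshold and the 10 genes most like Cryaa; other genes were named after their values were seen, and the values of 1 gene within this rule are not reported here.

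Deviations from the group means in same-numbered female libraries of the 2 genotypes had correlations of 0.14 to 0.21 (3 of 3 pairs above 0.1). Male ones had -0.21 to 0.29 (1 of 3 above 0.1). Over all groups, 10 of 18 same-numbered pairs were above 0.1. Of pairs with other numbers 10 of 36 were, and these reached 0.44. No 2 libraries of a group agreed within sampling noise (chi-square per degree of freedom of 6.43 to 77.6 over 12 pairs). Alternatives were DESeq2 1.42.0, its size factors, no filter, a replicate block, other pseudocounts, subsets of libraries by mt-Nd6 and each library left out.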

Additional observations from a re-analysis of the deposited data

Results flagged for a closer look

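In 17 of 32 comparisons of the 6 libraries of a genotype, the highest library lay further from the next than Dixon's 95% limit allows. Chance flags about 1 group in 20 only where values are normally distributed. These were unlogged CPM with long upper tails, as for Cryaa in wildtype (mean 97.1, median 53.9), so that rate does not hold here. The genes also share their libraries, so these are not separate events. Wildtype male 5 was the highest wildtype library in 14 of the 17. For the alpha and beta members its level was 355 CPM for Cryaa, 147 for Cryba1, 32.1 for Cryba2, 35.7 for Cryba4, 95.8 for Crybb1 and 117 for Crybb3. The next wildtype library had 116 CPM of Cryaa and 4.99 of Cryba2. For the gamma members it was 16.3 CPM for Crygb, 15.55 for Crygc, 19.8 for Crygd and 3.13 for Crygs. For other lens crystallins it was 0.156 CPM for Crybb2 (4 counts), 1.48 for Cryga, 23.9 for Cryge and 14.0 for Crygn. Mutant female 5 was the highest mutant library for Crygs at 6.45 CPM, Cryab at 37.9 and Cryga at 3.59.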

How the results depend on the processing

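Over all alternatives 0 of the 10 members were called in any genotype test. Without mutant female 5 the log2 fold changes of mutant minus wildtype turned to -0.94 for Cryaa, -0.61 for Cryba1, -0.40 for Cryba2, -0.30 for Cryba4, -0.32 for Crybb1, -0.71 for Crybb3, -0.44 for Crygb, -0.32 for Crygc, -0.38 for Crygd and -0.27 for Crygs. Of the fits with 1 library left out, that without wildtype male 5 gave the highest values, 2.93, 3.27, 3.44, 3.44, 3.19, 3.02, 3.23, 3.28, 2.90 and 2.33 in that order. Within the 5 libraries high in mt-Nd6 they were -1.84, -1.43, -1.32, -1.26, -1.25, -1.48, -1.32, -1.08, -1.25 and -0.80 in the same order. Within the 7 low in mt-Nd6 they were higher than in any of these, from 2.83 for Crygs to 3.98 for Cryba4. Mutant female 5 was among the 7 low libraries and wildtype male 5 among the 5 high ones. The cause was not tested.

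The count of genes called in both sexes was 15 with DESeq2, 2 with the replicate block and 1 to 5 with each library left out, against 4. In males it was 6 with DESeq2, against 0. In females it was 9 with DESeq2, 2 with the replicate block and 0 to 2 with each library left out, against 1. With the replicate block the members' median was 1.17 in both sexes, 1.38 in males and -0.64 for the interaction, which changed sign from 1.84. Lens genes following Cryaa fell from 9 of 25 to 5 within the 7 libraries low in mt-Nd6, with fewer libraries. Pitx3, Sox1 and Tdrd7 lost their call in several of these alternatives. Few crystallin counts limited the ratios in the 5 low libraries, where Cryaa had 17 to 78 counts. At a minimum of 100 counts the fold between the extreme ratios to Cryaa fell to 1.60 for the beta members and 1.90 for Crygb, Crygc and Crygd, from 4.60 and 6.45.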

Other observations

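Cdh1, the epithelial cadherin that the lens epithelium keeps, is on the surface ectoderm and cornea list and on neither lens list. The sum of that list did not pass against Cryaa (r = 0.23 over 12 libraries). Cdh1 itself was 0.104 CPM in wildtype male 4 and 8.63 CPM in mutant female 5. In the 7 libraries high in Cryaa it ran from 0.104 to 8.63 CPM and in the 5 low ones from 0.243 to 0.798 CPM. Like Foxe3, it was lower in wildtype male 4 than in the other 6 high libraries. Maf and Prox1, lens fibre transcription factors that retinal cells also express, ranged only from 15.3 to 29.6 and from 36.0 to 66.1 CPM. Within the 7 libraries their r with Cryaa was 0.78 and 0.79, and neither passed (exact permutation adjusted p = 0.0913 for both). Bfsp2, Lgsn and Dnase2b, late fibre genes, had at most 15, 2 and 6 counts in any library, each in mutant female 5, and did not pass the filter. These genes were singled out after their values were seen.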
